A study of Homo sapiens with 24 samples.

Results

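The genes described here encode collagen chains, laminin chains and 9 other proteins of basement membranes and of the matrix around them. They were taken by name from the 60668 genes of the count table: 44 collagen chains, 12 laminin chains and the single genes NID1, NID2, HSPG2, AGRN, FN1, SPARC, TNC, FBLN1 and FBN1, 65 in all. A filter on low counts kept 49 of the 65 for testing. The 16 others, among them COL1A2, COL3A1, COL14A1, COL15A1, LAMC3 and NID2, had no group mean above 0.0961 CPM (COL14A1 had that value). CPM is a gene's count for each 1000000 counts of the library's scaled total. A mean of at least 10 CPM in 1 or more groups was reached by 32 of the tested genes, and most of those are described one by one.

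MCF-10A is an immortalised, non-tumorigenic line of human mammary epithelial cells, and it forms hollow spheres when grown on basement membrane gel. The study compared wild-type MCF-10A, called the parental line below, with MCF-10A carrying MYC-ER, a fusion of the transcription factor MYC to the ligand-binding part of the oestrogen receptor. Both lines were grown in 3D on Matrigel with reduced growth factors, and both were given 4-hydroxytamoxifen (4-OHT), the ligand that activates the fusion, at 1 µM for 0, 8, 24 or 48 hours. All cultures were collected together, so the 0-hour groups had no 4-OHT but the same age in culture. Line and time make 8 groups of 3 libraries each. The MYC-ER cells carried the fusion at 0 hours as well, and the parental cells received 4-OHT without it. The parental time course thus shows 4-OHT in cells without the fusion. Differences between cultures or libraries cannot be told apart from the agent there. The labels do not say whether the MYC-ER line was a clone or a pool, what promoter drove the fusion, or whether the 3 libraries of a group came from separate experiments or from wells seeded together. The p-values therefore measure the spread between these libraries, which may be technical.

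Matrigel is itself made of mouse basement membrane rich in laminin, collagen IV, nidogen and perlecan, and it was dissolved before RNA was extracted. Only rows of human genes were counted, and mouse RNA that might align to them cannot be told apart. Total counts ran from 136860029 to 182438505 per library. The basal markers KRT5, KRT14 and TP63 were present in every group, with group means of 6922 to 13284, 626 to 9725 and 80.6 to 162 CPM. Of the others on the basal or myoepithelial list, KRT17 had group means of 323 to 3237 CPM and ITGB4 of 651 to 1853. ACTA2 was at 5.55 to 23.4 CPM, MYLK at 0.292 to 1.75, OXTR at 0.924 to 1.94 and CNN1 at 0.0234 or less. Summed over 10 luminal markers the group means were 240 to 662 CPM, against 10805 to 28134 over 10 basal markers, a list that holds LAMB3. Markers moved with the groups: in MYC-ER the luminal sum was 240 CPM at 0 hours, 662 at 8 hours, 475 at 24 hours and 493 at 48 hours, with KRT18 at 97.0 ± 5.8 (SD, n = 3) at 0 hours and 503 ± 21 at 8 hours and EPCAM at 1.93 ± 0.22 and 23.8 ± 2.2. Other luminal markers did not rise: KRT8 was at 121 ± 4.3 and 122 ± 1.7, and GATA3 fell from 18.9 ± 0.59 to 8.53 ± 0.25. Of 8 luminal markers tested, 3 were higher and 2 lower at 8 hours (all genes: 32.1% and 35.2%). KRT14 at 0 hours was 626 ± 24 in MYC-ER and 9725 ± 1866 in the parental line. The part of these markers' cells in the results was not tested. The 10 fibroblast markers summed to 80.0 to 372 CPM, nearly all of it COL1A1 and DCN, while THY1, DPT, PDGFRA and COL3A1 were at or near 0. The 6 endothelial markers summed to at most 2.54 CPM. RNA of whole cultures was measured, so fewer cells of a kind and less RNA per cell cannot be told apart.

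A basement membrane is a thin sheet of matrix under an epithelium. Laminins, heterotrimers of an alpha, a beta and a gamma chain, form its first network and bind integrins on the cells. Collagen IV forms the other network, and nidogen and the proteoglycans perlecan and agrin link the networks together. In mammary epithelium and in stratified epithelia, laminin-332, which holds LAMA3 and LAMB3, lies under the hemidesmosomes, the junctions that also hold collagen XVII. Collagen VII anchors laminin-332 to the stroma. MYC is known as a regulator of growth, ribosome production and metabolism, and in keratinocytes it has been described as lowering adhesion and matrix genes.

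At 8 hours of 4-OHT in the MYC-ER line, the laminin chains LAMA3 and LAMB3 and the collagen IV chains COL4A1 and COL4A2 rose, while LAMB1, LAMB2, LAMA5, the other collagen IV chains, collagen VII, nidogen and nearly all fibrillar collagens fell. Of the 49 tested genes, 12 were higher and 30 lower than at 0 hours (edgeR quasi-likelihood test, adjusted p under 0.05), where 32.1% of all 22158 genes tested were higher and 35.2% lower. The median log2 change was -0.86 over the 49 and -0.10 over all genes. At 24 hours, 15 were higher and 27 lower (all genes: 30.4% and 31.2%), with a median of -0.52 against -0.02. At 48 hours, 19 were higher and 22 lower (all genes: 23.4% and 20.7%), with a median of -0.07 against 0.03. Scaling by library size alone gave 21 higher and 15 lower at 48 hours (all genes under that scaling: 32.5% and 11.5%), and moved the median of all genes at that time by 0.16. From 24 to 48 hours, 29 of the 49 rose and 11 fell (all genes: 28.2% and 25.4%), and from 8 to 24 hours, 23 rose and 11 fell (28.3% and 27.0%).

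With 4-OHT in the parental line, at 8 hours, 9 were higher and 15 lower (all genes: 14.9% and 16%), at 24 hours 13 and 12 (21.2% and 21.6%), and at 48 hours 13 and 6 (20.3% and 20.1%), with medians between -0.12 and 0.05. A fit on the compared groups alone called 4 higher and 8 lower at 8 hours (all genes under that fit: 2.72% and 3.31%), and 9 higher and 3 lower at 48 hours (7.06% and 7.37%). The lines already differed without 4-OHT: in MYC-ER at 0 hours, 22 of the 49 were higher and 17 lower than in the parental line (all genes: 31.5% and 32.7%), and at 48 hours 23 and 14 (27.3% and 29.3%). The comparisons of 4-OHT times and the comparison of lines at 0 hours share the MYC-ER 0-hour libraries, so their values are given side by side only.

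The difference between the lines in their response to 4-OHT was tested as an interaction. It passed for 40 of the 49 genes at 8 hours, 11 more positive and 29 more negative in MYC-ER (all genes: 55.1% in either direction, 27.3% and 27.8%). It passed for 38 at 24 hours, 13 and 25 (54.4%, 27.6% and 26.8%), and for 37 at 48 hours, 18 and 19 (45.0%, 23.7% and 21.4%).

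**Figure D1:**
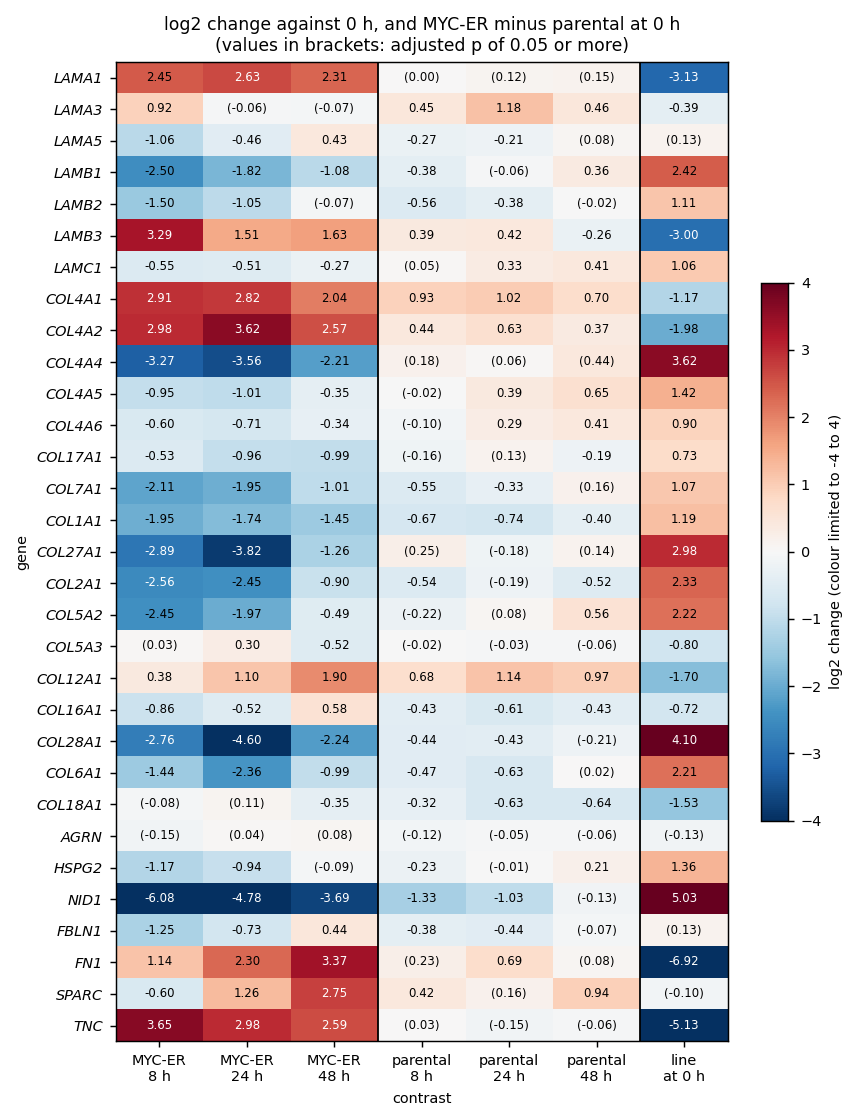
Log2 change of 31 genes that averaged 10 CPM or more in a group, in rows by role; columns are the 3 times against 0 hours in each line and, at the right, MYC-ER minus parental at 0 hours. Red is higher and blue lower, values in brackets missed the adjusted p of 0.05, and the colours stop at -4 and 4. The values of the MYC-ER columns run from -6.08 (NID1) to 3.65 (TNC) while the parental columns run from -1.33 (NID1) to 1.18 (LAMA3).

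The laminin chains are shown first by their promoters, since LAMA3 and LAMB3, which assemble into laminin-332, hold the same short letters near a listed start. For 49 of the 65 genes RefSeq (GRCh38.p14) listed 63 promoter windows of 300 bases, each running from 250 bases before a gene's start to 50 after it, so that base 251 is the first base of the transcript. Capitals mark matches on either strand to 4 motifs: the E-box CACGTG that MYC with its partner MAX binds, the AP-1 site TGANTCA, the GC box GGGCGG and the box CCAAT.
LAMA3 chr18:23872770-23873069, plus strand: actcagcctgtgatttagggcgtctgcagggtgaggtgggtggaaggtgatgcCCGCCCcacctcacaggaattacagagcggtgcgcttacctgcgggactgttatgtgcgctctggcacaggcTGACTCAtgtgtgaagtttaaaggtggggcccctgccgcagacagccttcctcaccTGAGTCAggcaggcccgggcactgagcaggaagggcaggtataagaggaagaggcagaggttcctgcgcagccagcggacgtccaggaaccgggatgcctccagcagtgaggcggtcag
LAMB3 chr1:209651325-209651624, minus strand: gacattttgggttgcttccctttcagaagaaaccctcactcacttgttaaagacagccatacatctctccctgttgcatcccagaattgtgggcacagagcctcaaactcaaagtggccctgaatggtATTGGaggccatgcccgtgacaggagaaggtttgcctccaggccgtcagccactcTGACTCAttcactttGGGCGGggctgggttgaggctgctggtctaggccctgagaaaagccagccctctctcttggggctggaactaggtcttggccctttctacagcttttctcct
LAMB1 chr7:108003112-108003411, minus strand: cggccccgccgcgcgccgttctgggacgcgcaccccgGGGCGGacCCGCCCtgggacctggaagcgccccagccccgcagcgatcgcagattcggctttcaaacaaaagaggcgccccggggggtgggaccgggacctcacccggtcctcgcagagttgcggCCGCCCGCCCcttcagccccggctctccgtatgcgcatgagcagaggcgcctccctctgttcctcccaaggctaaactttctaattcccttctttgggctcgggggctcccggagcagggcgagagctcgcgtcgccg
LAMA3 held the AP-1 letters at -125 to -119 and again at -69 to -63, and LAMB3 at -67 to -61. The LAMA3 window lies at a start inside the gene, which spans chr18:23689453-23955066, and the LAMB3 window is 1 of 3 listed for that gene, the other 2 without the letters. The window of LAMB1, the beta chain that fell, held 4 GC box matches, 2 of them overlapping, and none to AP-1. The listed windows of COL4A1, COL4A2, COL6A3, FN1 and TNC, which rose at 8 hours in MYC-ER, held none to AP-1 either. A link between these letters and the direction of change was not tested. Over all 63 windows, AP-1 letters were in 3 (4.76%, against 7.71% of 35116 windows of all genes), the E-box in none (against 7.26%), the GC box in 38 (60.3% against 45.0%) and CCAAT in 19 (30.2% against 34.6%). A match describes the letters of the window and is not evidence of binding.

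LAMB3, the beta chain of laminin-332, was measured at 153, 154 and 159 CPM in the 3 MYC-ER libraries at 0 hours and at 1539.6, 1428 and 1580.2 at 8 hours. It stood at 474, 434 and 420.3 at 24 hours and at 476, 469.5 and 499 at 48 hours. Each MYC-ER library with 4-OHT was above all those at 0 hours, and those at 8 hours were far above the rest. The log2 change was 3.29 (standard error 0.08, adjusted p = 2.1e-19) at 8 hours, a 9.76-fold rise, 1.51 at 24 hours and 1.63 at 48 hours. In the parental line LAMB3 was high throughout, at 1385, 1069 and 1286 at 0 hours and 1634, 1536 and 1741 at 8 hours, and then 1678, 1588 and 1735 at 24 hours and 960.4, 1083 and 1076 at 48 hours. The MYC-ER libraries at 0 hours were thus far below every parental library, with a log2 difference of -3.00 (standard error 0.08, adjusted p = 7.1e-19), and those at 8 hours lay within the parental range. The parental changes were 0.39, 0.42 and -0.26, and the groups at 0 and 48 hours overlapped. The 48-hour call was lost without parental 0-hour replicate 1 (log2 change -0.18, adjusted p = 0.083) and without parental 48-hour replicate 1 (-0.21, 0.055).

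LAMA3, the alpha chain of laminin-332, changed less than LAMB3. In MYC-ER it was at 511, 540.0 and 506 CPM at 0 hours, 999, 961 and 988 at 8 hours, 544, 486 and 468 at 24 hours and 499.7, 484 and 500.0 at 48 hours. The 8-hour libraries were the highest, with a log2 change of 0.92 (standard error 0.06, adjusted p = 1.3e-11), and the 24 and 48-hour values were -0.06 and -0.07 and did not pass. Parental LAMA3 was at 672, 721 and 642 at 0 hours, 893, 911 and 982 at 8 hours, 1531, 1463 and 1627 at 24 hours and 857, 949 and 986 at 48 hours. It rose at each time there, most at 24 hours (log2 change 1.18, standard error 0.07, adjusted p = 7.2e-11), and the interaction at 24 hours was -1.24 (adjusted p = 8.0e-11).

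LAMB1, the beta chain of laminin-111 and laminin-511 among others, was the converse of LAMB3. It was at 1521, 1591 and 1544 CPM in MYC-ER at 0 hours and at 268, 276 and 279.5 at 8 hours, followed by 442, 433 and 445 at 24 hours and 725, 724 and 759 at 48 hours. All 4 groups were apart, with 0 hours the highest and 8 hours the lowest. The log2 changes were -2.50 (standard error 0.06, adjusted p = 2.5e-20), -1.82 and -1.08. Parental cells held 302, 307 and 262 at 0 hours, 221, 230.5 and 219.9 at 8 hours, 272, 272 and 293 at 24 hours and 362, 373 and 384 at 48 hours. The MYC-ER line at 0 hours was above every parental library by a log2 difference of 2.42 (standard error 0.06, adjusted p = 2.9e-20), and at 48 hours it fell short of its own start while parental LAMB1 was above its start by 0.36.

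LAMA5, LAMB2 and LAMC1 fell at 8 hours. LAMA5, the alpha chain of laminin-511, was at 533, 494 and 485 CPM at 0 hours, 221, 248 and 255 at 8 hours, 381, 364 and 358 at 24 hours and 683, 686 and 669.7 at 48 hours in MYC-ER, where the 48-hour libraries were above all the others. Its log2 changes were -1.06 (standard error 0.07, adjusted p = 5.9e-12), -0.46 and 0.43 (standard error 0.07, adjusted p = 2.6e-05), and its parental groups ran from 352 to 513 CPM over all times. LAMB2, a beta chain of some laminins of muscle and nerve, was at 546, 538 and 524 at 0 hours, 179.8, 194 and 195 at 8 hours, 250.0, 264 and 262 at 24 hours and 510.2, 501 and 519.5 at 48 hours, with a log2 change of -1.50 (standard error 0.06, adjusted p = 1.6e-16) at 8 hours and a value at 48 hours that did not pass (-0.07, adjusted p = 0.32). LAMC1, the gamma chain of most laminins outside laminin-332, was at 478, 508 and 463 at 0 hours, 325, 332 and 335 at 8 hours, 362, 331 and 326 at 24 hours and 404, 394 and 403 at 48 hours, with log2 changes of -0.55, -0.51 and -0.27. The 48-hour call of LAMC1 was lost with library size alone (adjusted p = 0.21). Parental LAMC1 moved the other way, from 239, 253 and 204 at 0 hours to 296, 311 and 321 at 48 hours (log2 change 0.41).

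LAMA1, the alpha chain of laminin-111, which is best known from embryos, was at 1.65, 1.62 and 1.86 CPM in MYC-ER at 0 hours, 8.89, 9.89 and 9.25 at 8 hours, 11.0, 11.2 and 9.60 at 24 hours and 8.69, 8.29 and 8.49 at 48 hours. It rose by a log2 change of 2.45 (standard error 0.08, adjusted p = 1.8e-17) at 8 hours and stayed up (2.63 and 2.31), yet each MYC-ER library remained below every parental one, which ran from 14.1 to 17.7 CPM at all times. LAMA2, LAMA4 and LAMB4 were tested but stayed under 1 CPM in every group.

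**Figure D2:**
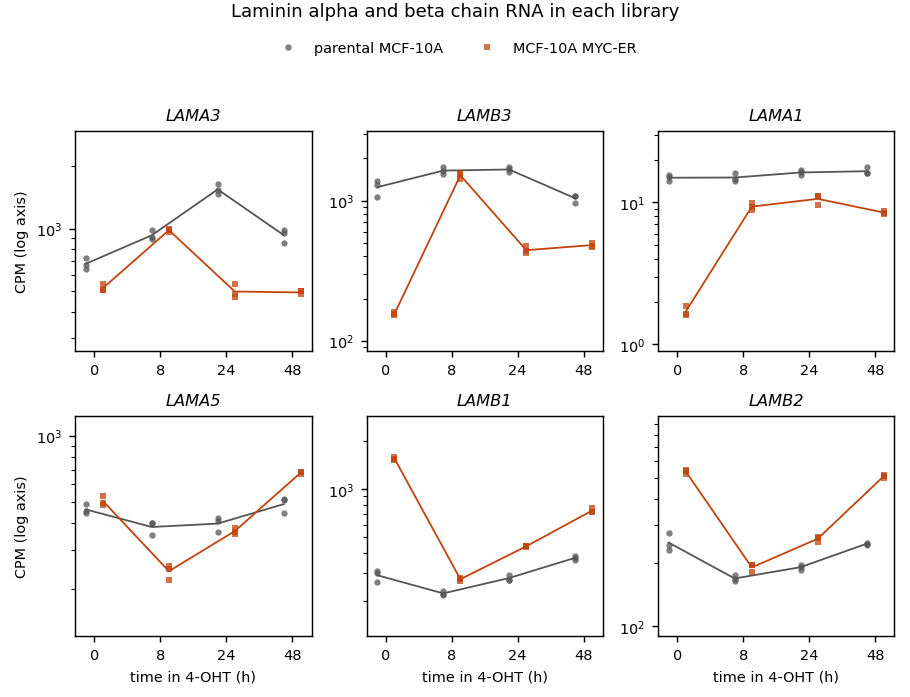
CPM on a log axis, which differs between panels, for 6 laminin chains in each of the 24 libraries; circles are parental and squares MYC-ER, and lines join the means of 3 libraries, with the times spaced evenly. In MYC-ER the LAMB3 mean goes from 155 at 0 hours to 1516 at 8 hours while the LAMB1 mean goes from 1552 to 274, and the parental means of LAMB3 stay between 1040 and 1667.

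Levels of different chains were compared per kilobase of the longest transcript. LAMB3 made up 9.03% ± 0.26 (SD, n = 3 here and below) of the summed beta chain level in MYC-ER at 0 hours, 81.3% ± 0.99 at 8 hours, 45.7% ± 1.8 at 24 hours and 34.0% ± 0.21 at 48 hours. LAMB1 made up 67.3% ± 0.59, 11.0% ± 0.49, 34.0% ± 0.85 and 38.7% ± 0.18 at the same times. The leading beta chain at 0 hours was thus LAMB1 and at 8 hours LAMB3. In the parental line LAMB3 led at all times, with 75.3% ± 2.4, 84.7% ± 1.2, 82.5% ± 0.32 and 69.1% ± 1.1. In MYC-ER, LAMA3 held 52.4% ± 1.7 of the alpha chain level at 0 hours and 80.7% ± 1.3 at 8 hours. It held 43.5% ± 0.68 at 48 hours, and LAMA5 held nearly all of the rest at these times. With the union of exons as the length, LAMA3 held 49.99% and LAMA5 49.85% at 0 hours, and 41.2% and 58.1% at 48 hours. Transcripts from the start inside LAMA3 were not told apart from its longest one. Shorter transcripts would make the LAMA3 share higher than given. The order of LAMA3 and LAMA5 at 0 and 48 hours is therefore not settled.

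**Figure D3:**
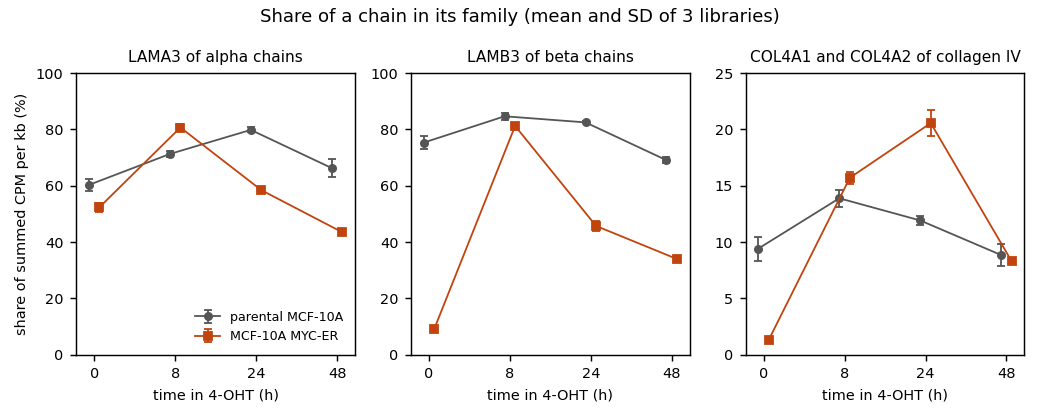
Share of LAMA3 and of LAMB3 in the summed level per kilobase of their chain type, and of COL4A1 with COL4A2 in that of collagen IV, at each time; points are means and bars SDs of 3 libraries, and the last panel has an axis to 25% where the others run to 100%. The LAMB3 share in MYC-ER goes from 9.03% to 81.3% at 8 hours and back to 34.0% at 48 hours, and in the parental line it stays at 69.1% or above.

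The collagen IV chains are encoded in 3 pairs of genes that lie head to head, each shown by the window of 1 partner. Against 0 hours in MYC-ER, both partners of a pair moved in the same direction at each time. From 8 to 24 hours 2 pairs split. COL4A2 went from at most 44.2 CPM to at least 63.7, and COL4A3 from at most 0.0993 to at least 0.221. The libraries of COL4A1 and of COL4A4 overlapped between those times. By the starts of their listed windows, COL4A1 and COL4A2 are 127 bases apart on chromosome 13 and COL4A3 and COL4A4 419 bases apart on chromosome 2. COL4A5 and COL4A6 are 380 bases apart on chromosome X. The span of COL4A4 runs past its listed start at 227164205 to base 227164488, closer to the COL4A3 start at 227164624. The 300-base windows of the partners overlap by 226, 82 and 121 bases, so a printed window covers part of the partner's as well. Capitals are as above.
COL4A2 chr13:110307034-110307333, plus strand: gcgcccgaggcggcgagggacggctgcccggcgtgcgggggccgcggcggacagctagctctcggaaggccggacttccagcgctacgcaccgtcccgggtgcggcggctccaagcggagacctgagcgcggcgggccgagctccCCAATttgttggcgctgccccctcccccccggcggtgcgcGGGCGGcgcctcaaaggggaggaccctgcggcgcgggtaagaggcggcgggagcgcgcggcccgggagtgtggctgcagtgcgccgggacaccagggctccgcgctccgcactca
COL4A3 chr2:227164374-227164673, plus strand: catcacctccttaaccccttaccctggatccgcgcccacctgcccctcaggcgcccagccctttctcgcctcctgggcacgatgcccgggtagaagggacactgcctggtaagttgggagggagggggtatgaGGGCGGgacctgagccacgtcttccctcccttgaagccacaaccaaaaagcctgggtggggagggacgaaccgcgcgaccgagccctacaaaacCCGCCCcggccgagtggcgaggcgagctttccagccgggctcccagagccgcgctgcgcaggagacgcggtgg
COL4A5 chrX:108439588-108439887, plus strand: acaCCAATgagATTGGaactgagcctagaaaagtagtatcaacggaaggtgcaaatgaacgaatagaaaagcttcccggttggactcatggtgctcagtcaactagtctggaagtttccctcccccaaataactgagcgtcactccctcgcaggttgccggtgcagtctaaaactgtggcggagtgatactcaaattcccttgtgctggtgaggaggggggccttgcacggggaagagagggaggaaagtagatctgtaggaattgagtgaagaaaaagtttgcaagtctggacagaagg
The window of COL4A2 held 1 GC box and 1 CCAAT match, that of COL4A3 2 GC box matches, and that of COL4A5 2 CCAAT matches and no GC box.

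COL4A1 and COL4A2 form the collagen IV trimer found in nearly all basement membranes. COL4A1 was at 3.61, 3.74 and 3.80 CPM in MYC-ER at 0 hours, 28.4, 28.7 and 26.8 at 8 hours, 29.3, 25.4 and 23.9 at 24 hours and 15.4, 15.0 and 15.4 at 48 hours. COL4A2 was at 4.99, 5.61 and 5.81 at 0 hours, 43.5, 42.2 and 44.2 at 8 hours, 70.3, 67.1 and 63.7 at 24 hours and 32.3, 33.8 and 31.1 at 48 hours. Both were above their 0-hour libraries at every later time without overlap. The log2 changes of COL4A1 were 2.91 (standard error 0.13, adjusted p = 5.3e-15), 2.82 and 2.04, and those of COL4A2 2.98, 3.62 (standard error 0.11, adjusted p = 4.8e-18) and 2.57. Parental COL4A1 went from 8.86, 9.91 and 6.24 at 0 hours to 15.96, 15.6 and 16.1 at 8 hours (log2 change 0.93, standard error 0.12, adjusted p = 1.2e-05), and COL4A2 from 23.5, 20.5 and 20.6 to 29.8, 27.9 and 29.6 (0.44). The pair thus rose with 4-OHT in both lines, and more so in MYC-ER, with interactions of 1.98 (standard error 0.18, adjusted p = 1.9e-09) and 2.55 (standard error 0.15, adjusted p = 8.4e-13) at 8 hours.

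COL4A3 and COL4A4, chains of the trimer known from kidney and lung, fell. COL4A4 was at 17.5, 16.5 and 15.0 CPM in MYC-ER at 0 hours, 1.52, 1.24 and 2.29 at 8 hours, 1.36, 1.31 and 1.49 at 24 hours and 3.60, 3.49 and 3.47 at 48 hours, and between 0.827 and 2.03 in all parental libraries. COL4A3, which missed the mean of 10 CPM and is given as its partner, was at 2.45, 2.63 and 2.15 at 0 hours, 0.094, 0.0993 and 0.0667 at 8 hours, 0.221, 0.259 and 0.231 at 24 hours and 0.513, 0.898 and 0.9 at 48 hours. The MYC-ER libraries at 0 hours were the highest of all 24 for both genes, and those at 8 and 24 hours lay in or near the parental range. The log2 changes of COL4A4 were -3.27 (standard error 0.22, adjusted p = 4.1e-12), -3.56 and -2.21, and those of COL4A3 -4.79 (standard error 0.62, adjusted p = 4.6e-07), -3.34 and -1.65.

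COL4A5 and COL4A6, the pair that forms a trimer under smooth muscle and many epithelia, were by far the most abundant. COL4A5 was at 419, 421 and 412 CPM in MYC-ER at 0 hours, 206, 229.8 and 213 at 8 hours, 207, 202 and 211 at 24 hours and 319, 328 and 335 at 48 hours. COL4A6 was at 249, 264 and 252 at 0 hours, 166, 169 and 170.3 at 8 hours, 157, 154 and 156 at 24 hours and 201, 203 and 201 at 48 hours. Both fell without overlap at 8 and 24 hours and were between the extremes at 48 hours. For COL4A5 the log2 changes were -0.95 (standard error 0.10, adjusted p = 1.0e-08), -1.01 and -0.35, and for COL4A6 -0.60 (standard error 0.07, adjusted p = 6.5e-08), -0.71 and -0.34. The 48-hour calls of both were lost with library size alone (adjusted p = 0.18 and 0.058). In the parental line the pair was not called at 8 hours and was higher at 48 hours, COL4A5 from 152, 193 and 124 to 234, 242 and 259 and COL4A6 from 142, 149.6 and 118 to 169.5, 186 and 189.7. Those changes were 0.65 and 0.41, and the interactions at 48 hours -0.99 (standard error 0.14, adjusted p = 3.7e-06) and -0.75 (standard error 0.10, adjusted p = 1.7e-06).

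Per kilobase, COL4A5 and COL4A6 made up 96.8% ± 0.050 of collagen IV RNA in MYC-ER at 0 hours. The share of COL4A1 with COL4A2 was 1.33% ± 0.079 at 0 hours, 15.7% ± 0.55 at 8 hours, 20.6% ± 1.1 at 24 hours and 8.28% ± 0.25 at 48 hours, and in the parental line 8.84% to 13.9%. With the union of exons as the length it was 0.824% ± 0.046, 10.2% ± 0.34, 13.3% ± 0.82 and 5.17% ± 0.14 in MYC-ER, and 5.49% to 8.80% in the parental line. The rise of the COL4A1 pair therefore left COL4A5 and COL4A6 as the main chains at each time.

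**Figure D4:**
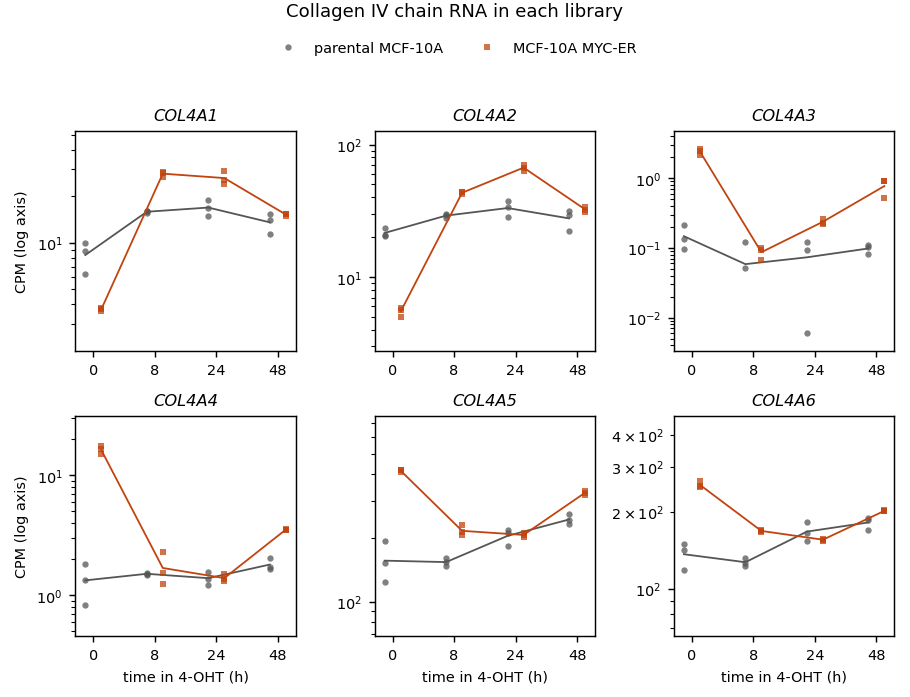
CPM on a log axis, which differs between panels, for the 6 collagen IV chains in each of the 24 libraries; symbols and lines are as for the laminin chains, and a library at 0 is not drawn. In MYC-ER, COL4A1 and COL4A2 rise from means of 3.72 and 5.47 at 0 hours to 28.0 and 43.3 at 8 hours, and the other 4 chains are lower at 8 hours than at 0 hours.

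COL17A1, the transmembrane collagen of hemidesmosomes, was among the most abundant of these genes per kilobase in every group. It was at 3991, 4044 and 3903 CPM in MYC-ER at 0 hours, 2737, 2655 and 2856 at 8 hours, 2126, 2029 and 1994 at 24 hours and 2032, 1968 and 2017 at 48 hours. The 0-hour libraries were the highest, and those at 24 and 48 hours overlapped. The log2 changes were -0.53 (standard error 0.06, adjusted p = 7.6e-08), -0.96 and -0.99: COL17A1 was lower at each time, at 8 hours together with the rise of LAMA3 and LAMB3. Parental libraries held 1917 to 2843 CPM over all times. COL7A1, the collagen of anchoring fibrils, was at 1024, 1018 and 1014 at 0 hours, 215, 249 and 246 at 8 hours, 229, 279 and 285 at 24 hours and 502, 503 and 516 at 48 hours. Its log2 changes were -2.11 (standard error 0.09, adjusted p = 1.6e-15), -1.95 and -1.01. Parental COL7A1 went from 543, 439.6 and 477 to 311, 348 and 335 at 8 hours, a log2 change of -0.55 (standard error 0.09, adjusted p = 6.6e-05). The interaction was -1.55 (adjusted p = 2.4e-10).

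Per kilobase, genes with high levels in MYC-ER at 0 hours were COL17A1 (699 ± 13 CPM per kilobase), LAMB1 (269 ± 6.2), COL7A1 (110 ± 0.53) and LAMB2 (94.5 ± 2.0). At 8 hours COL17A1 (483 ± 18), LAMB3 (352 ± 18), LAMA3 (92.2 ± 1.8) and LAMB1 (47.6 ± 1.0) were in that order. At 48 hours COL17A1 (353 ± 5.9) was followed by LAMB1 (128 ± 3.4), LAMB3 (112 ± 3.6) and LAMB2 (89.9 ± 1.6). Parental cells at 0 hours had COL17A1 (421 ± 14), LAMB3 (289.6 ± 38) and LAMA3 (63.6 ± 3.8), and at 8 hours parental LAMB3 (380.3 ± 24) and COL17A1 (377 ± 2.3) did not differ beyond their spread. With the union of a gene's exons as its length, LAMB3 made up 11.0% of the beta chain level in MYC-ER at 0 hours and 84.0% at 8 hours, and at 48 hours LAMB3 (102.7 ± 3.3) stood above LAMB1 (90.4 ± 2.4).

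The fibrillar collagens, which build the fibres of stroma, were mostly lower in MYC-ER: 7 of the 8 tested at each of 8, 24 and 48 hours, where 35.2%, 31.2% and 20.7% of all genes were lower. COL1A1, 1 of the 2 chains of type I collagen, was at 220.4, 212 and 212 CPM at 0 hours, 54.0, 54.1 and 58.4 at 8 hours, 57.1, 68.0 and 68.0 at 24 hours and 80.9, 75.2 and 80.2 at 48 hours, with log2 changes of -1.95 (standard error 0.08, adjusted p = 5.5e-16), -1.74 and -1.45. Its partner chain COL1A2 had at most 9 counts in a library and COL3A1 at most 2. The fibroblast marker DCN, a small proteoglycan, moved with COL1A1, at 157 CPM in MYC-ER at 0 hours and 21.5 to 49.4 in the other groups, and the part of other cells in the COL1A1 level was not tested. Parental COL1A1 went from 105, 83.2 and 93.8 at 0 hours to 60.9, 59.2 and 56.9 at 8 hours, a log2 change of -0.67 (standard error 0.08, adjusted p = 1.7e-06).

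COL5A2, a chain of the type V collagen that seeds fibrils, was at 53.4, 54.7 and 50.8 CPM at 0 hours, 9.64, 9.76 and 9.63 at 8 hours, 12.7, 13.0 and 14.9 at 24 hours and 37.8, 37.5 and 37.6 at 48 hours. Its log2 change was -2.45 (standard error 0.10, adjusted p = 5.4e-16) at 8 hours, and by 48 hours the change was -0.49. COL2A1, known from cartilage, went from 19.9, 20.7 and 20.4 to 3.31, 3.46 and 3.61 at 8 hours (log2 change -2.56), and COL27A1 from 21.5, 21.0 and 19.9 to 2.55, 3.28 and 2.60 and, at 24 hours, 1.26, 1.83 and 1.34 (-3.82). All 3 were higher in MYC-ER than in parental cells at 0 hours, by 2.22, 2.33 and 2.98. COL5A3 was the fibrillar chain that was not lower at 8 hours, at 7.24, 7.52 and 7.60 at 0 hours and 7.67, 7.11 and 8.13 at 8 hours, and its parental libraries, at 10.5 to 14.0, were all above the highest MYC-ER library (9.59).

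Of the other collagens, COL6A1, a chain of the beaded filaments, was at 59.9, 58.1 and 56.7 CPM in MYC-ER at 0 hours, 21.1, 20.3 and 23.1 at 8 hours, 12.0, 11.3 and 10.7 at 24 hours and 31.2, 27.6 and 28.98 at 48 hours. Its log2 changes were -1.44, -2.36 (standard error 0.09, adjusted p = 8.5e-17) and -0.99. Its partner COL6A3, below the mean of 10 and singled out after its values were seen, had no count in the 3 MYC-ER libraries at 0 hours and 7.18, 6.83 and 6.44 at 8 hours. That is at least 389-fold higher at 8 hours, at least 143-fold at 24 hours and at least 7.72-fold at 48 hours, against a limit of 3 counts per library. The parental libraries at 0 hours held 2.81, 3.67 and 2.44, at least 169.8-fold above the MYC-ER limit. COL28A1 went from 66.1, 68.4 and 65.8 to 9.41, 10.5 and 9.69 at 8 hours, 2.32, 3.00 and 2.95 at 24 hours and 13.0, 14.9 and 14.4 at 48 hours, with a log2 change of -4.60 (standard error 0.16, adjusted p = 5.0e-17) at 24 hours. Parental COL28A1 ran from 2.48 to 4.75 CPM.

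COL12A1 and COL16A1 belong to the collagens that sit on fibrils. COL12A1 rose over time in MYC-ER, at 2.01, 1.44 and 1.65 CPM at 0 hours, 1.95, 2.36 and 2.34 at 8 hours, 4.02, 3.11 and 3.83 at 24 hours and 6.20, 7.07 and 5.78 at 48 hours, with log2 changes of 0.38, 1.10 and 1.90 (standard error 0.15, adjusted p = 4.9e-10). Its 8-hour groups overlapped, and the 8-hour call was lost without MYC-ER 0-hour replicate 2 (COL12A1 adjusted p = 0.15) or replicate 3 (0.074) and without MYC-ER 8-hour replicate 2 (0.090) or replicate 3 (0.088). It rose in the parental line too, from 5.19, 7.02 and 4.42 at 0 hours to 11.8, 11.7 and 13.1 at 24 hours. COL16A1 fell at 8 hours and was above its start at 48 hours, at 63.5, 64.9 and 67.5 at 0 hours, 37.3, 36.1 and 34.8 at 8 hours, 43.9, 46.8 and 45.5 at 24 hours and 95.2, 94.6 and 103 at 48 hours (-0.86, -0.52 and 0.58). In the parental line it was lower at every time (-0.43, -0.61 and -0.43). COL18A1, a basement membrane collagen that yields endostatin, ran from 3.77 to 5.72 CPM in MYC-ER and fell from 16.4, 12.7 and 14.5 to 8.65, 10.02 and 9.26 at 48 hours in the parental line (-0.64, standard error 0.11, adjusted p = 6.9e-05).

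Among the linkers, NID1 (nidogen-1, the bridge between laminin and collagen IV) showed the greatest fall of the 32 genes. It was at 32.3, 30.9 and 28.0 CPM in MYC-ER at 0 hours and at 0.412, 0.376 and 0.554 at 8 hours, with 1.01, 1.04 and 1.26 at 24 hours and 2.39, 2.32 and 2.35 at 48 hours. The log2 changes were -6.08 (standard error 0.28, adjusted p = 1.3e-14), -4.78 and -3.69. Parental libraries held 0.332 to 1.26 over all times, so MYC-ER at 0 hours stood above them by 5.03 (standard error 0.26, adjusted p = 1.6e-13) and at 8 hours lay among them. The other nidogen, NID2, had at most 6 counts in a library. HSPG2 (perlecan) was at 652, 634 and 621 at 0 hours, 266, 289 and 291 at 8 hours, 359.9, 318 and 318 at 24 hours and 580.5, 609 and 606 at 48 hours, with a log2 change of -1.17 (standard error 0.07, adjusted p = 1.6e-12) at 8 hours and a value at 48 hours that did not pass (-0.09, adjusted p = 0.37). AGRN (agrin) was at 419, 358 and 371 at 0 hours, 334, 338 and 361 at 8 hours, 435, 381 and 368 at 24 hours and 419, 411 and 387 at 48 hours, and none of its changes against 0 hours passed in either line (MYC-ER -0.15, 0.04 and 0.08, standard error 0.08).

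FN1, TNC and SPARC rose from low levels in MYC-ER. FN1 (fibronectin) was at 0.244, 0.38 and 0.368 CPM in MYC-ER at 0 hours, 0.665, 0.851 and 0.674 at 8 hours, 2.002, 1.37 and 1.53 at 24 hours and 3.51, 3.14 and 3.60 at 48 hours. The groups did not overlap, and the log2 changes were 1.14, 2.30 and 3.37 (standard error 0.15, adjusted p = 2.4e-14). The parental libraries ran from 36.9 to 68.7, and the log2 difference of MYC-ER from parental cells was -6.92 at 0 hours and -3.64 at 48 hours. TNC (tenascin-C) was at 0.708, 0.743 and 1.02 at 0 hours, 10.2, 10.02 and 11.0 at 8 hours, 6.85, 6.21 and 6.45 at 24 hours and 4.96, 4.69 and 5.29 at 48 hours, with a log2 change of 3.65 (standard error 0.10, adjusted p = 1.1e-18) at 8 hours. In parental cells TNC ran from 23.8 to 30.4 with no call against 0 hours.

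SPARC, a collagen-binding protein of the matrix, was lower at 8 hours and higher later in MYC-ER: 2.40, 2.63 and 2.71 CPM at 0 hours, 1.40, 2.02 and 1.70 at 8 hours, 5.83, 6.21 and 6.45 at 24 hours and 17.5, 18.4 and 16.1 at 48 hours. All 4 groups were apart, and the log2 changes were -0.60, 1.26 and 2.75 (standard error 0.12, adjusted p = 2.0e-14). Parental SPARC was at 2.93, 2.62 and 2.77 at 0 hours and 4.50, 5.66 and 5.81 at 48 hours (0.94). FBLN1 (fibulin-1) was at 132, 129.8 and 133 at 0 hours, 55.2, 52.9 and 57.6 at 8 hours, 80.4, 79.8 and 77.1 at 24 hours and 179, 179 and 178 at 48 hours in MYC-ER, lower at 8 hours (log2 change -1.25, standard error 0.07, adjusted p = 4.5e-13) and above its start at 48 hours (0.44). FBN1 (fibrillin-1) had MYC-ER group means of 1.70 to 2.86.

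**Figure D5:**
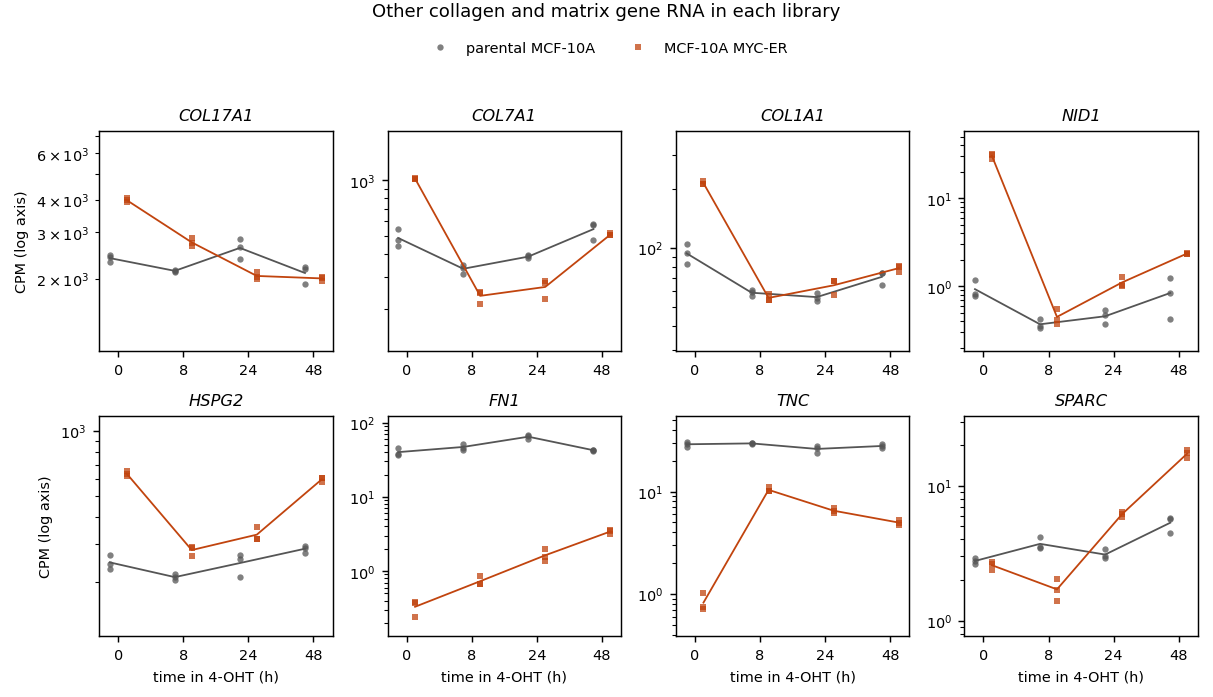
CPM on a log axis, which differs between panels, for COL17A1, COL7A1, COL1A1, NID1, HSPG2, FN1, TNC and SPARC in each of the 24 libraries; symbols and lines are as for the laminin chains. NID1 falls from a mean of 30.4 to 0.447 at 8 hours in MYC-ER, FN1 and SPARC have their highest MYC-ER values at 48 hours, and the parental FN1 libraries lie between 36.9 and 68.7.

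The 17 tested genes under the mean of 10 CPM were 13 collagen chains, LAMA2, LAMA4, LAMB4 and FBN1, with group means of at most 8.55 (COL6A3). COL24A1, COL25A1 and COL9A3 had no count at 8 hours in MYC-ER and were at least 16.4-fold, at least 12.8-fold and at least 6.98-fold lower there than at 0 hours. COL11A2, a fibrillar chain of cartilage, changed by -2.09 at 8 hours, and COL13A1, a transmembrane collagen, by 1.71 (log2). COL8A1, known from endothelial membranes, changed by -0.48 at 8 hours and was higher at 48 hours (1.57). Its 8-hour libraries, at 0.482 to 0.861 CPM, overlapped those at 0 hours, at 0.817 to 0.928.

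All 65 genes together took 1.13% ± 0.025 of the counts in MYC-ER at 0 hours, 0.976% ± 0.0075 at 8 hours, 0.741% ± 0.015 at 24 hours and 0.927% ± 0.013 at 48 hours. The parental share was 0.840% ± 0.056, 0.899% ± 0.014, 1.17% ± 0.055 and 0.921% ± 0.027. Lowest in MYC-ER and highest in parental cells were the 24-hour groups. The share of mitochondrial genome genes was 9.54% in MYC-ER at 0 hours and 6.06% to 7.21% in the other groups, and without those genes the share was 1.25% at 0 hours and 1.04% at 8 hours in MYC-ER.

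Genes that work on these proteins were taken from 3 lists. Of 31 tested enzymes and chaperones that fold, modify and crosslink collagen, 21 were higher and 8 lower in MYC-ER at 8 hours, 20 and 9 at 24 hours, and 12 and 7 at 48 hours. Of all genes, 32.1% were higher and 35.2% lower at 8 hours, 30.4% and 31.2% at 24 hours, and 23.4% and 20.7% at 48 hours. LOXL2, a crosslinking oxidase, had means of 2.05 CPM at 0 hours, 57.3 at 8 hours and 71.1 at 24 hours (log2 change 5.12, standard error 0.28, adjusted p = 4.6e-12 at 24 hours). PLOD1, a lysyl hydroxylase, went from 76.2 to 272 at 8 hours and SERPINH1, the collagen chaperone HSP47, from 72.5 to 256 (log2 changes 1.84 and 1.82). LOX, the related oxidase, fell from 242 to 65.4 (-1.89, standard error 0.13, adjusted p = 8.2e-12), and parental LOX means were 21.1 to 28.6. The median log2 change at 8 hours was 1.09 over the 31, beside -0.86 over the 49 and -0.10 over all genes.

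Of 23 tested proteins of the basement membrane outside the 65, 9 were higher and 11 lower at 8 hours in MYC-ER, beside 32.1% and 35.2% of all genes. THBS1 (thrombospondin-1) rose from a mean of 5.53 to 92.4 CPM at 8 hours (4.06, standard error 0.11, adjusted p = 7.4e-19), and stood at 121 in parental cells at 0 hours. SMOC1, a relative of SPARC, rose from 2.54 to 27.5 (3.44), and FRAS1, of the epithelial membrane, was at 27.7 at 24 hours against 5.88 at 0 hours (2.23). SPOCK1, a proteoglycan related to SPARC, fell from 23.3 to 1.48 (-3.98), and FBLN5 (fibulin-5) from 50.5 to 0.896 at 24 hours (-5.82, standard error 0.15, adjusted p = 1.6e-19). TGFBI, which binds collagens and integrins, fell from 11577 to 3635 at 24 hours (-1.67).

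Of 18 tested receptors and their anchors for laminin and collagen, 11 were higher and 3 lower at 8 hours in MYC-ER (all genes: 32.1% and 35.2%), and 7 and 7 at both 24 hours (30.4% and 31.2%) and 48 hours (23.4% and 20.7%). ITGA3, an integrin alpha chain that binds laminin-332, rose from a mean of 231 to 1153 CPM at 8 hours (2.32, standard error 0.07, adjusted p = 5.4e-18) and was at 307 at 48 hours. ITGA6 and ITGB4, which form the hemidesmosomal integrin and were chosen after their values were seen, rose from 441 to 1459.6 and from 651 to 1405 (1.73 and 1.11). The collagen receptor ITGA2 rose from 14.0 to 145 (3.37) and the syndecan SDC1 from 472 to 2253 (2.25). DST, which ties hemidesmosomes to keratin in its epithelial form, fell from 1261 to 254 (-2.31, standard error 0.10, adjusted p = 2.6e-15), and the collagen receptor kinase DDR1 from 588 to 266 (-1.15). At 8 hours in MYC-ER, LAMA3, LAMB3 and the integrins that bind laminin-332 were therefore higher than at 0 hours, and COL17A1 and DST were lower. Counts are per gene, so the epithelial form of DST was not told apart from its other forms. Parental group means of ITGB4 were 1478 to 1853 CPM, beside 1405 in MYC-ER at 8 hours.

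With 4-OHT alone, in the parental line, changes among the largest, over genes that averaged 10 CPM or more in a group compared, were those of COL4A1 (0.93), LAMA3 (0.45) and COL4A2 (0.44) for the rises at 8 hours, and COL1A1 (-0.67), LAMB2 (-0.56) and COL7A1 (-0.55) for the falls. At 24 hours LAMA3 (1.18), COL12A1 (1.14) and COL4A1 (1.02) were among the most raised, and COL1A1 (-0.74), COL6A1 (-0.63) and COL18A1 (-0.63) the most lowered. Across 9784 genes averaging at least 10 CPM over all libraries, the parental changes were related to GC content (Spearman rho -0.62, -0.66 and -0.65 at 8, 24 and 48 hours), where the MYC-ER values were 0.017, -0.063 and 0.026. For transcript length the parental values were 0.39, 0.55 and 0.60 and the MYC-ER values -0.11, -0.13 and -0.097. The interactions had values of 0.23, 0.25 and 0.46 for GC content and -0.25, -0.38 and -0.47 for length. The difference between the lines at 0 hours had -0.26 and 0.38. Genes are not independent replicates. With GC and length trends removed, AGRN, COL5A3, LAMB2, FBLN1 and FN1 had parental changes of the opposite sign at 1 or more times.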

How the data were processed

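RNA with poly(A) was sequenced from 24 cultures, 3 in each of 8 groups. The authors deposited 1 table of read counts per gene for all libraries, in whole numbers and not normalized. Per the submitters' processing notes the tools were Trimmomatic 0.39, STAR and StringTie 2.1.3b with GRCh38. If StringTie made the table, its counts are estimates from coverage. The annotation release, the strand setting in counting and the handling of reads with several matches are not given in the sources used here. Libraries held 136860029 to 182438505 counts, and every column was used.

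Genes were filtered with filterByExpr, scaled by TMM and tested with edgeR 4.0.16 in R 4.3.3 (quasi-likelihood, robust, all 8 groups in 1 fit), with Benjamini-Hochberg adjustment over 22158 genes and calls at an adjusted p under 0.05. The coefficient of variation between libraries, fitted over all genes, was 0.151. A standard error is the log2 change divided by the square root of F. CPM values (counts for each 1000000 of a library's total) use TMM-scaled totals. Levels per kilobase use the longest transcript of GENCODE 29, and promoter windows come from RefSeq. Values in every library are given for genes that averaged 10 CPM or more in a group, and up to 5 rises and 5 falls lead each comparison, with up to 3 and 3 from each list of partner genes. Genes and lists were chosen with earlier results of these data known. Same-numbered libraries did not deviate together over all tested genes (30 pairs, r from -0.0336 to 0.0519). Such a correlation can miss a pairing that touches few genes, so whether the numbers pair libraries is not known. The fit was tested on simulated data for MYC-ER at 8 hours against 0 hours. It recovered 62% of 100 genes changed by 1 on the log2 scale and 74% of 100 changed by 2, with 4 false calls. A change that did not pass is therefore not shown to be absent. Alternatives included DESeq2 1.42.0, other scaling and filters, trends in GC content and length, and each library left out. Results of 1 gene are not reported here.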

Additional observations from a re-analysis of the deposited data

Results flagged for a closer look

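Line and 4-OHT time interacted (interaction in edgeR, adjusted p under 0.05) for 40 of the 49 tested genes at 8 hours, 38 at 24 hours and 37 at 48 hours, beside 55.1%, 54.4% and 45.0% of all genes tested. In several of them the lines moved in opposite directions, both past the test. At 8 hours this was SPARC (interaction -1.02 on the log2 scale). At 24 hours it was COL4A5 (-1.4), COL4A6 (-1.01) and LAMC1 (-0.84), all lower in MYC-ER and higher in the parental line. At 48 hours, COL4A5 (-0.99), COL4A6 (-0.75), COL5A2 (-1.06), LAMB1 (-1.44) and LAMC1 (-0.68) were lower in MYC-ER and higher in the parental line, and COL16A1 (1.01) and LAMB3 (1.89) were higher in MYC-ER and lower in the parental line. The parental calls of SPARC at 8 hours and LAMB3 at 48 hours were lost when single libraries were left out. The MYC-ER calls of COL4A5, COL4A6 and LAMC1 at 48 hours were lost when scaling used library size alone.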

How the results depend on the processing

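Of 333 calls over the 32 genes that reached a mean of 10 CPM and 13 comparisons, 297 held under every alternative and 36 were lost under 1 or more. For the MYC-ER times against each other or 0 hours, 127 of 138 held, and for the parental times 37 of 58. A fit on the compared groups only gave 4 genes higher and 8 lower at 8 hours and 3 lower at 48 hours in the parental line, against 9, 15 and 6. With GC and length trends removed, log2 values changed sign for AGRN in the parental line (0.15, 0.24 and 0.18 at 8, 24 and 48 hours), COL5A3 (0.21 and 0.22 at 8 and 24 hours), LAMB2 (0.14 at 48 hours), FBLN1 (0.22 at 48 hours) and FN1 (-0.37 at 48 hours), and for the COL12A1 interaction at 24 hours (0.42). That setting gave 11 higher and 12 lower in the parental line at 8 hours. The share of all genes under that setting is not given here, so these counts are description only. The cause was not tested. Without mitochondrial genome genes the 65 genes took 1.25%, 1.04%, 0.792% and 0.994% of counts in MYC-ER in time order, and 0.969%, 1.25% and 0.991% in the parental line at 8, 24 and 48 hours, since the total is smaller.

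Scaling by library size alone moved the median of all genes by 0.11 at 24 hours and 0.16 at 48 hours in MYC-ER, by 0.21 between 8 and 24 hours, by 0.14 between the lines at 48 hours, and by -0.12 and 0.10 for the interactions at 8 and 48 hours. Whether replicate numbers pair the libraries is not known. With the replicate number as a block, 12 genes were higher and 30 lower at 8 hours in MYC-ER, 15 and 27 at 24 hours, and 18 and 21 at 48 hours. The share of all genes in the fit with that block is not given here, so these counts too are description only.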
